A study of Mus musculus with 6 samples.

Results

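The circadian clock genes described here are *Per1*, *Per2*, *Per3*, *Dbp*, *Tef*, *Nr1d1*, *Nr1d2*, *Ciart*, *Arntl* and *Bhlhe41*, 10 of the 51826 genes with a row in the deposited tables, each taken by its exact symbol. They were read in 6 libraries of bulk cortical RNA, 3 from *Lgmn*+/+ BALB/c mice (*Lgmn*+/+-IR) and 3 from *Lgmn*-/- mice lacking asparagine endopeptidase (*Lgmn*-/--IR). The study lists the *Lgmn*-/- mice as BALB/c too. The mice were male and 6 to 8 weeks old, all had received a single whole-brain dose of 10 Gy X-rays, and cortex was taken on day 3. The knockout mice carried a floxed *Lgmn* allele recombined by Cre, and neither the Cre driver nor the strain of the embryonic stem cells is given in the sources used here. The study's methods mention littermates, without saying whether the sequenced wild-type and knockout mice came from the same litters. The sources do not say that each library came from 1 animal, and p-values measure only the spread between these samples. The mice were housed under a light-dark cycle, and the hour at which cortex was taken is not given in the sources used here. The question was whether genes that peak at opposite times of day differed between the genotypes.

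The clock is a transcriptional loop. ARNTL (also called BMAL1) pairs with CLOCK or NPAS2, binds E-boxes and switches on the *Per* genes, *Nr1d1*, *Nr1d2*, *Dbp*, *Tef*, *Ciart* and *Bhlhe41*, and the PER proteins then inhibit this pair. REV-ERB-alpha and REV-ERB-beta, the products of *Nr1d1* and *Nr1d2*, repress *Arntl*, *Npas2* and *Nfil3* through ROR elements (ROREs), so these peak at the opposite time of day, and DBP and TEF act through D-boxes, where NFIL3 competes with them. In mouse tissues *Nr1d1* and *Dbp* usually peak first, the *Per* genes follow with *Per2* last among them, then *Cry1*, and *Arntl* and *Npas2* come at the opposite end.

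Promoter windows show where these elements sit. RefSeq windows (GRCm38.p6) of 300 bases, from 250 before to 50 after a start site, were found for 9 of the 10 genes, and none was found for *Per2*. The windows were searched on both strands for the E-box CACGTG, the D-box TTATGTAA or TTACGTAA, the RORE, which ends in GGTCA, and the cyclic AMP response element TGACGTCA. The E-box stood in windows of *Per1*, *Tef*, *Ciart* and *Bhlhe41*, that is 4 of the 9 genes, against 8.09% of the 27025 genes with a window. The 7 E-boxes are shown with 12 bases on each side, in capitals, so that their flanks can be compared, and *Ciart* alone holds 3, of which the closer pair share part of the stretch shown. No 2 matches overlapped.
Per1 E-box, chr11:69098771-69098800, plus strand: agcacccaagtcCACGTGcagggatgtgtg
Tef E-box, chr15:81802534-81802563, plus strand: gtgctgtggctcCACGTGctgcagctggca
Tef E-box, chr15:81811264-81811293, plus strand: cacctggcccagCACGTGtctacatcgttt
Ciart E-box, chr3:95882327-95882356, minus strand: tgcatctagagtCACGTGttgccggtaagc
Ciart E-box, chr3:95882269-95882298, minus strand: cgcagggggaggCACGTGcagaaccgcacg
Ciart E-box, chr3:95882255-95882284, minus strand: cgtgcagaaccgCACGTGtctgggaggggg
Bhlhe41 E-box, chr6:145865556-145865585, minus strand: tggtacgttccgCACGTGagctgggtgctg

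The D-box occurred in 1 of the 9 genes, *Per3*, where it stood at 2 places (1.23% of all genes with a window), and the RORE in 1, *Arntl* (2.87%). The cyclic AMP response element was in 0 of the 9 genes (2.03% of all genes). *Per2* had no window, so it was not searched for the D-box. The matches of *Arntl*, on the opposite arm of the loop, and of *Per3*, the only searched gene with a D-box match, are shown. Capitals again mark the match.
Per3 D-box, chr4:151044852-151044881, minus strand: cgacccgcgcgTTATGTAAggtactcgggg
Per3 D-box, chr4:151044805-151044834, minus strand: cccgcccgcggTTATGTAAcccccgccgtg
Arntl RORE, chr7:113207528-113207557, plus strand: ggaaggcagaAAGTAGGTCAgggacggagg

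For the pair of genes that passed the test between genotypes, *Dbp* and *Arntl*, the 250 bases before the first RefSeq start site are shown, in which none of the searched motifs occurred. A match is a description of letters and not a bound site, and an absent match says only that these letters are not in the window. On GRCm38 *Dbp* lies on chromosome 7 from 45705088 to 45710203 and *Arntl* on the same chromosome from 113207465 to 113314126.
Dbp, chr7:45704997-45705246, plus strand: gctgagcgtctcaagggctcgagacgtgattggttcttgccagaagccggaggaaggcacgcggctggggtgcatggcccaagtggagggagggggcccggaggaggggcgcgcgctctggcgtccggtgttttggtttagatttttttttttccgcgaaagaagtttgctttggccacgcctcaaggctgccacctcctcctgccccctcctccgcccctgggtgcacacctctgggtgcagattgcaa
Arntl, chr7:113207215-113207464, plus strand: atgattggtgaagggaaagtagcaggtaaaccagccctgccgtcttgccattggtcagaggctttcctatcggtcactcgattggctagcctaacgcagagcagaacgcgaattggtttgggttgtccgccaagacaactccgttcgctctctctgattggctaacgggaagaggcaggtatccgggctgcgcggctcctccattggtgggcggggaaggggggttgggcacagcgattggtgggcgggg

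Library totals were 41874462 to 46829441 counts, so that 1 CPM (counts scaled to library size with TMM factors) stood for 42.7 to 46.4 counts, and each clock gene had at least 317 counts in every library. *Lgmn*, the targeted gene, had 127 to 130.3 CPM in *Lgmn*+/+-IR and 70.4 to 93.6 in *Lgmn*-/--IR (log2 fold change -0.64, SE 0.12, edgeR quasi-likelihood adjusted p = 0.0315). It passed in 7 of 16 alternative settings and stayed lower in all of them. The whole-gene count does not show which exons were lost. Of 18345 genes tested, 611 had an adjusted p under 0.05 (3.33%) and 377 were DEGs, which also needed an absolute log2 fold change over 1 (2.06%). All 5 erythroid genes, with *Hba-a1* and *Hbb-bs* the most abundant, rose past the test in the knockout (1.65% of all genes tested). Their calls held in 6 (*Alas2*) to 13 (*Hba-a1*) of 16 alternative settings. Their sum was 7.59 to 15.8 CPM in *Lgmn*+/+-IR and 233.6 to 2273 in *Lgmn*-/--IR. Sums of 5 striatal markers ran from 197 to 1085 CPM and overlapped between genotypes, and *Six6*, a marker of the suprachiasmatic nucleus, had 0 counts in all 6 libraries. In bulk RNA, fewer cells of a type and less RNA per cell cannot be told apart.

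Levels were compared between the genes in FPKM, which is scaled for length. In *Lgmn*+/+-IR *Tef* was highest (104.0 FPKM), followed by *Dbp* (78.4), *Nr1d1* (63.5), *Per1* (27.2), *Nr1d2* (22.7), *Ciart* (14.3), *Bhlhe41* (8.95), *Arntl* (7.95), *Per2* (6.72) and *Per3* (5.59). The libraries of *Per1* and *Nr1d2* overlapped, as did those of *Per2* and *Per3*, and the other neighbors in this order did not overlap. In *Lgmn*-/--IR *Nr1d1* (59.8 FPKM) stood above *Dbp* (48.0), and *Arntl* (13.3) stood above *Per2* (9.40), *Ciart* (8.36), *Bhlhe41* (6.43) and *Per3* (5.63). Here the libraries of *Per2*, *Ciart*, *Bhlhe41* and *Per3* overlapped from each gene to the next.

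*Arntl* was higher and *Dbp* was lower in *Lgmn*-/--IR cortex, and these were the only clock genes of the 10 to pass an adjusted p of 0.05, against 3.33% of all genes tested. Neither reached the fold threshold for a DEG (2.06% of all genes). At an unadjusted p under 0.05 stood 5 of the 10 (18.6% of all genes), 2 higher in the knockout (9.26%) and 3 lower (9.34%). Libraries did not overlap between genotypes for 5 (25.7%), with the knockout above for *Arntl* and *Per2* (12.4%) and below for *Dbp*, *Nr1d2* and *Bhlhe41* (13.3%), while *Per1*, *Per3* and *Nr1d1* had nearly equal means. Over the 10 genes the median log2 fold change was -0.10, against -0.01 over all genes tested.

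*Arntl*, the activator, had 24.8, 24.1 and 23.0 CPM in *Lgmn*+/+-IR replicates 1, 2 and 3, and 35.1, 38.3 and 47.2 CPM in *Lgmn*-/--IR replicates 1, 2 and 3. Every knockout library was above every wild-type library, and the wild-type values lay close together. The log2 fold change was 0.75 (SE 0.13, 95% interval 0.45 to 1.05, 1.68-fold, edgeR quasi-likelihood adjusted p = 0.0267). The adjusted p was 0.0769, 0.120 and 0.111 without *Lgmn*+/+-IR replicate 1, 2 or 3 and 0.0568 and 0.0540 without *Lgmn*-/--IR replicate 2 or 3, with log2 fold changes from 0.62 to 0.84 over all single omissions, and *Arntl* passed the test in 8 of 16 alternative settings.

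*Dbp*, a PAR bZIP transcription factor and a direct output of the loop, had 163.4, 154.0 and 155.0 CPM in the wild-type libraries and 108.0, 96.9 and 92.3 CPM in the knockout libraries. The groups were separate, and the within-genotype spread was small, with 12.2% of the genes tested having a smaller SD of log2 CPM. The log2 fold change was -0.67 (SE 0.09, 95% interval -0.88 to -0.45, edgeR quasi-likelihood adjusted p = 0.0115), a level 1.59-fold higher in wild type. *Dbp* passed in 12 of 16 alternative settings, and the adjusted p was 0.0619 without *Lgmn*+/+-IR replicate 2 and 0.0519 without replicate 3. *Sphk2*, which overlaps *Dbp* on the opposite strand and could share its reads if strand was not used, had 28.4 to 33.8 CPM in wild type and 30.5 to 45.7 in the knockout.

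**Figure D1:**
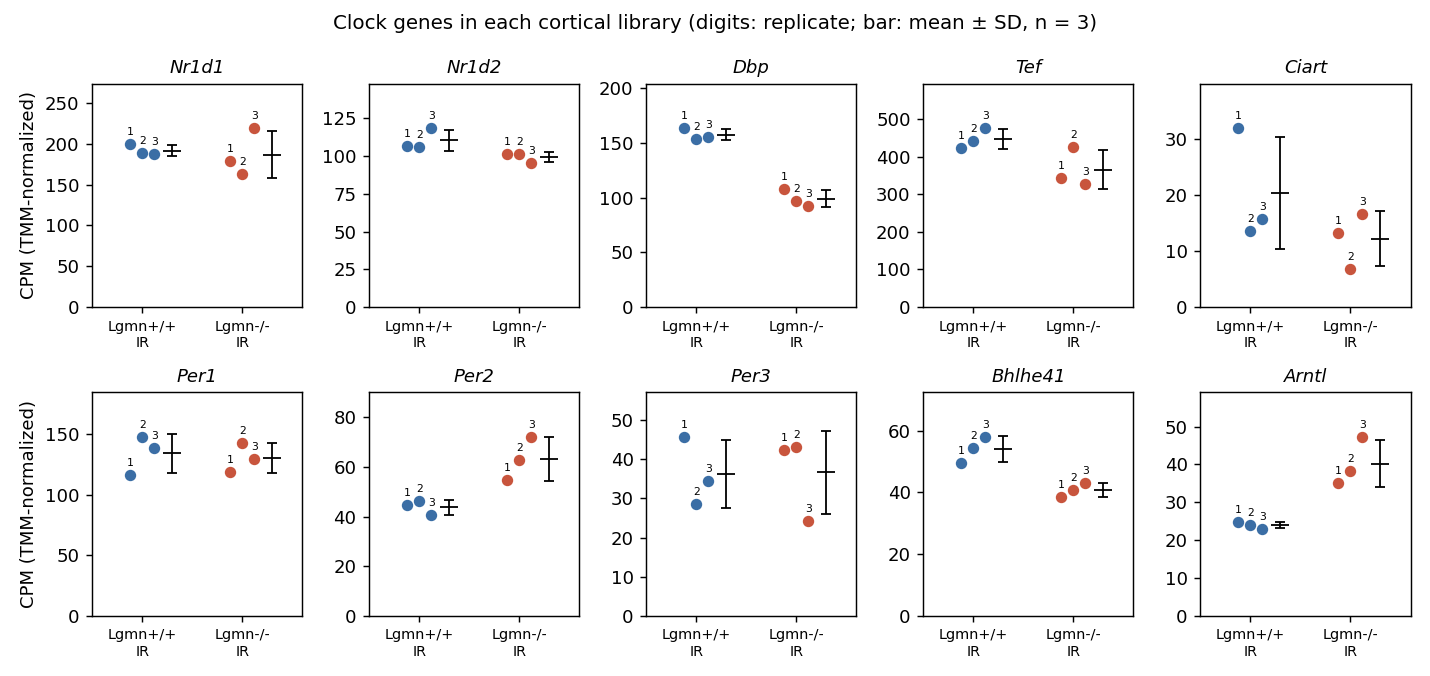
CPM of the 10 clock genes in each library (y axis, from 0) by genotype (x axis), with 1 point per library, the replicate number above it, and mean ± SD beside it (n = 3). *Dbp* (92.3 to 108.0 against 154.0 to 163.4) and *Arntl* (35.1 to 47.2 against 23.0 to 24.8) separate in opposite directions, and *Ciart* and *Per3* spread widely within each genotype.

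*Tef*, the PAR bZIP relative of *Dbp*, had 424, 441 and 476 CPM in wild type and 344, 426 and 328 CPM in the knockout. Replicate 2 of the knockout lay within the wild-type range, so the groups overlapped. The log2 fold change was -0.29 (SE 0.12, 95% interval -0.57 to -0.01, edgeR quasi-likelihood adjusted p = 0.253), which did not pass.

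The *Nr1d* genes encode the REV-ERB repressors of *Arntl*. *Nr1d1* had 199.9, 188.2 and 187.2 CPM in wild type and 178.3, 163.3 and 219.0 CPM in the knockout, with the highest and the lowest value both in knockout libraries. Its log2 fold change was -0.04 (SE 0.12, 95% interval -0.32 to 0.25, adjusted p = 0.893), so that a difference of the size seen for *Dbp* lay outside the interval. *Thra*, on the opposite strand overlapping *Nr1d1*, had 911 to 1080 CPM and could share reads with it if strand was not used. *Nr1d2* had 106.6, 106.4 and 118.4 CPM in wild type and 101.3, 101.7 and 95.3 CPM in the knockout. Its libraries did not overlap, and the difference was small (log2 fold change -0.15, SE 0.09, 95% interval -0.35 to 0.05, adjusted p = 0.394).

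The *Per* genes encode the period proteins of the inhibitory arm, and their fold changes ranged from -0.04 to 0.53 on the log2 scale. *Per2* had 44.6, 46.2 and 40.4 CPM in wild type and 54.7, 62.8 and 72.0 CPM in the knockout, without overlap. Its log2 fold change was 0.53 (SE 0.12, 95% interval 0.24 to 0.82, adjusted p = 0.0720), just short of the threshold in edgeR and past it in DESeq2 (adjusted p = 0.00778), with a range of 0.00778 to 0.212 over the alternatives. *Per1*, which also responds quickly to neuronal activity and glucocorticoids, had 116.3 to 147.8 CPM in wild type and 118.7 to 143.0 in the knockout. These ranges nearly coincided (log2 fold change -0.04, SE 0.12, 95% interval -0.32 to 0.24, adjusted p = 0.880). *Per3* had 45.7, 28.5 and 34.4 CPM in wild type and 42.4, 43.2 and 24.3 CPM in the knockout (log2 fold change 0.02, SE 0.26, 95% interval -0.59 to 0.62). Its spread within genotypes was larger than that of 90.5% of the genes tested, and the interval does not exclude a change as large as that of *Per2*. *Per3* overlaps *Camta1* on the same strand, which had 169 to 290 CPM.

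*Ciart* (also called CHRONO) and *Bhlhe41* (also called DEC2) encode further repressors of the ARNTL pair. *Ciart* had 31.9, 13.6 and 15.6 CPM in wild type and 13.2, 6.83 and 16.5 CPM in the knockout. Wild-type replicate 1 stood at 2.35 times the lowest wild-type library, knockout libraries differed by as much (2.42 times), and 96.9% of the genes tested had a smaller spread. The log2 fold change of -0.74 (SE 0.41, 95% interval -1.71 to 0.23, adjusted p = 0.390) therefore could not be told from 0, and it was -0.25 without wild-type replicate 1 and -0.45 without knockout replicate 2. *Bhlhe41* had 49.6, 54.4 and 57.9 CPM in wild type and 38.5, 40.9 and 43.1 CPM in the knockout, without overlap. Its log2 fold change was -0.40 (SE 0.10, 95% interval -0.64 to -0.17, adjusted p = 0.0842), and it passed in 2 of 16 alternative settings, with adjusted p from 0.0218 (DESeq2) to 0.249. *Gm43909*, which overlaps *Bhlhe41* on the opposite strand, could share its reads if strand was not used. It had 2.31 to 2.57 CPM in wild type and 0.934 to 1.80 in the knockout.

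**Figure D2:**
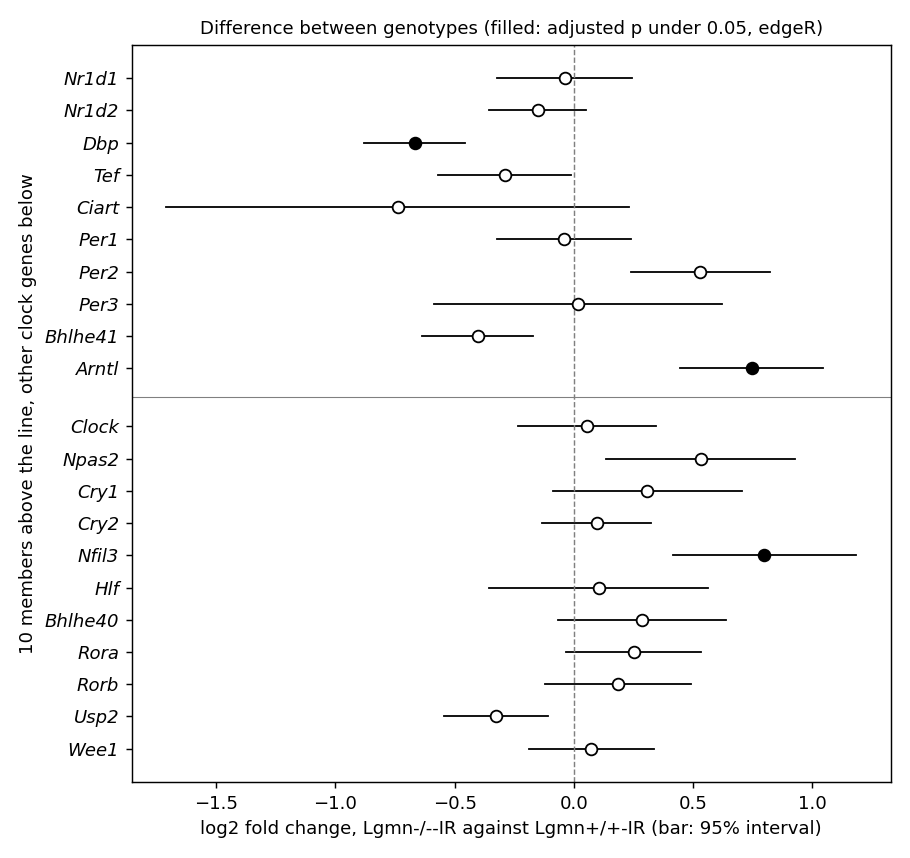
Log2 fold change of *Lgmn*-/--IR against *Lgmn*+/+-IR (x axis) with its 95% interval for the 10 clock genes and 11 other clock genes (y axis), filled where the adjusted p was under 0.05. *Dbp* lies left of 0 at -0.67, *Arntl* and *Nfil3* lie right of 0 at 0.75 and 0.80, and *Ciart* has the widest interval.

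Ratios between genes of the same library do not depend on the scaling of libraries. The ratio of *Dbp* to *Arntl* counts was 6.59, 6.39 and 6.74 in the wild-type libraries and 3.08, 2.53 and 1.96 in the knockout libraries. As *Dbp* and *Arntl* each separated the genotypes in opposite directions, their ratio had to separate them too. It restates the differences of these genes and adds no support to them. On the log2 scale the mean was 2.72 ± 0.04 in wild type and 1.31 ± 0.33 in the knockout (SD, n = 3 each), a difference of -1.41, or 2.65-fold. It stayed between -1.56 and -1.24 when each library was left out in turn and was -1.46 from FPKM.

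The ratios of the other clock genes to *Arntl* were lower in the knockout too. Of 9 ratios to *Arntl*, 8 did not overlap between genotypes, all but that of *Per3*. They share 1 denominator, and the same was true of 72.8% of all genes tested, so the count is read against that share. Against *Npas2*, the partner gene that also peaks opposite to *Nr1d1*, 6 of 9 ratios did not overlap (46.1% of all genes), and those of *Per1*, *Per2* and *Per3* did.

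**Figure D3:**
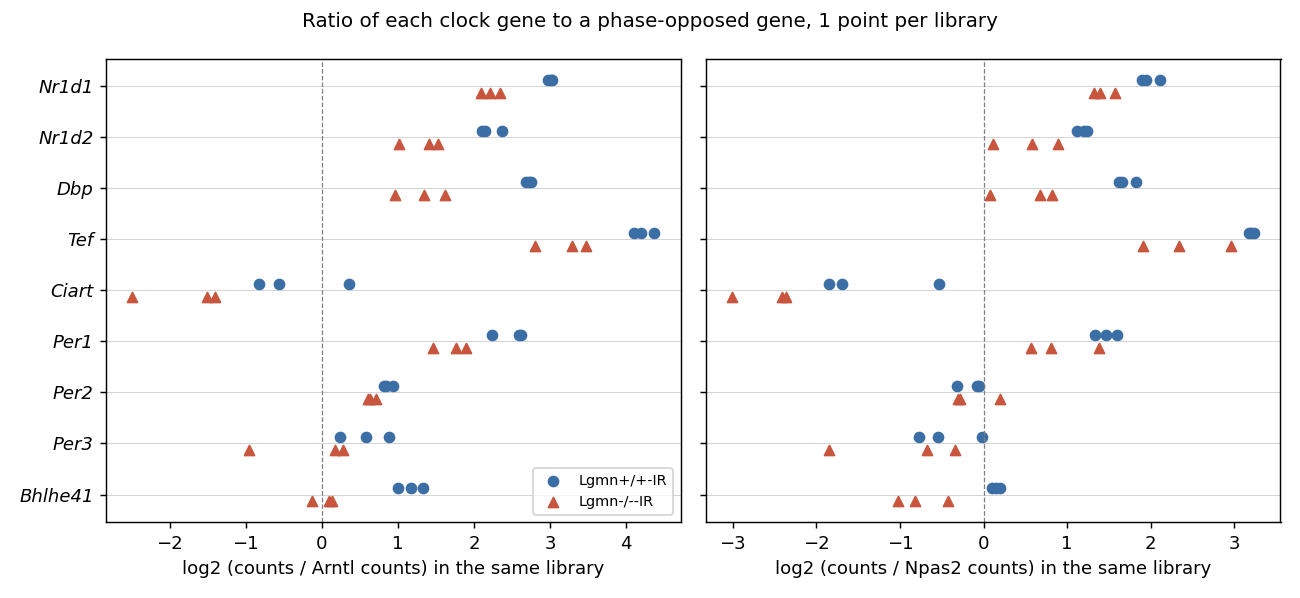
Log2 ratio of the counts of each clock gene to *Arntl* (left) or *Npas2* (right) in the same library (x axis), with 1 point per library and gene (y axis). The ratios to *Arntl* do not overlap between genotypes for any gene but *Per3*, with *Dbp* at 0.97 to 1.62 against 2.68 to 2.75, and *Per2* shifts least.

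Some pairs of genes from the same arm separated in their ratio to each other and others did not. The ratio of *Dbp* to *Nr1d1* counts, both early genes, was 0.817, 0.818 and 0.828 in wild type and 0.606, 0.594 and 0.422 in the knockout. The wild-type libraries were almost identical and all knockout libraries were lower. The ratio of *Per2* to *Per1* was 0.383, 0.313 and 0.292 in wild type and 0.461, 0.440 and 0.556 in the knockout, again without overlap. That of *Dbp* to *Tef* was 0.326 to 0.385 and 0.228 to 0.314, also without overlap. The ratio of *Nr1d1* to *Nr1d2* overlapped, at 1.58 to 1.88 in wild type and 1.61 to 2.30 in the knockout, as did that of *Arntl* to *Npas2*, at 0.457 to 0.537 and 0.518 to 0.699. That of *Arntl* to *Clock* did not, at 0.334 to 0.395 and 0.499 to 0.671. *Nr1d1* and *Per1* themselves had log2 fold changes of -0.04, so the ratios to them largely restate the differences of *Dbp* and *Per2*. The share of all genes without overlap was not computed for *Nr1d1*, *Per1*, *Tef*, *Nr1d2* or *Clock* as denominator. The ratios were not tested, and the part of the hour of collection in these differences was not tested.

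Of 30 other genes of the clock pathway, all tested, 1 passed in the direction of higher knockout values (background 1.65%) and 0 passed as lower (1.68%), with edgeR's quasi-likelihood test. At an unadjusted p under 0.05, 4 of the 30 were listed, against 18.6% of all genes tested, *Npas2* and *Nfil3* higher and *Arntl2* and *Usp2* lower. The median log2 fold change of this list was 0.06. *Nfil3*, the repressor that competes with DBP at D-boxes, had 7.95, 10.7 and 9.67 CPM in wild type and 13.7, 17.7 and 17.9 CPM in the knockout, without overlap. It rose only just past the threshold (log2 fold change 0.80, SE 0.16, adjusted p = 0.0499) and passed in 2 of 16 alternative settings, with an adjusted p of 0.0529 to 0.166 when each library was left out in turn.

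*Npas2*, which can replace CLOCK as the partner of ARNTL, had 46.2, 48.9 and 50.3 CPM in wild type and 67.8, 54.8 and 87.7 CPM in the knockout. Its libraries were separate, and the test was not passed (log2 fold change 0.53, SE 0.17, 95% interval 0.14 to 0.93, adjusted p = 0.158). *Usp2*, a deubiquitinase gene under clock control, had 75.4 to 84.8 CPM in wild type and 60.0 to 67.9 in the knockout (log2 fold change -0.33, SE 0.09, adjusted p = 0.121). For *Clock* the log2 fold change was 0.06 (95% interval -0.24 to 0.35), and for the cryptochrome genes *Cry1* and *Cry2*, partners of the PER proteins, 0.31 (-0.09 to 0.71) and 0.10 (-0.13 to 0.32). *Rora* and *Rorb*, which encode activators at ROREs, had 0.25 and 0.18, the PAR bZIP gene *Hlf* 0.10, *Bhlhe40* 0.29 and the kinase gene *Wee1* 0.07, all with adjusted p of at least 0.318.

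Other genes moved between the same groups as *Dbp* and *Arntl*, and their part in the clock differences was not tested. Of 4 temperature response genes 1 rose past the test (1.65% of all genes tested) and 2 fell (1.68%). *Cirbp*, an RNA-binding protein gene induced by mild cold, had 77.1, 76.9 and 74.8 CPM in wild type and 48.5, 45.0 and 33.9 CPM in the knockout (log2 fold change -0.84, adjusted p = 0.0237), and its cold-induced relative *Rbm3* changed by -0.65 (adjusted p = 0.0238). *Hspa5*, the endoplasmic reticulum chaperone gene, rose by 0.87 (adjusted p = 0.0225), and *Hspa8* had 0.48 (adjusted p = 0.0731). The calls of *Cirbp* and *Hspa5* held in 7 and that of *Rbm3* in 6 of 16 alternative settings, with adjusted p up to 0.103, 0.0949 and 0.0872 when single libraries were left out.

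Of 6 heat shock genes 4 rose past the test (1.65% of all genes tested) and 0 fell (1.68%). *Hspa1b* was higher in every knockout library (46.1 to 93.0 CPM against 10.1 to 11.7, log2 fold change 2.78, adjusted p = 0.00278), *Hsph1* had 309 to 376 CPM against 210 to 235 (adjusted p = 0.0223), with calls in 16 and 9 of 16 alternative settings, and the cytosolic chaperone gene *Hsp90aa1* overlapped (633 to 839 CPM against 534 to 784). Of 12 glucocorticoid response genes, *Per1* among them, 0 passed in edgeR and 0 had an unadjusted p under 0.05, with *Ddit4* past the test in 1 of 16 alternative settings. The most abundant of them, *Mt1* and *Klf9*, had log2 fold changes of -0.04 and 0.01, and the list ranged from -0.59 to 0.41. Libraries did not overlap between genotypes for 1 of the 12 (25.7% of all genes tested). Of 12 immediate early genes only *Btg2* passed, against 3.33% of all genes tested (log2 fold change -0.95, adjusted p = 0.0313, 7 of 16 alternative settings). *Fosb* and *Fosl2* had log2 fold changes of 0.85 and 0.71, with every knockout library above every wild-type library and unadjusted p under 0.05, and *Fosb* passed in 1 alternative setting. The list as a whole leaned the other way, with a median log2 fold change of -0.30. Libraries did not overlap for 3 of its 12 genes, against 25.7% of all genes tested, and 18.6% of all genes had an unadjusted p under 0.05. *Arc* and *Egr1* had adjusted p of 0.809 and 0.467. *Arntl2*, *Cirbp*, *Rbm3*, *Hspa1b*, *Ddit4*, *Btg2*, *Fosb* and *Fosl2* were named after their values were seen.

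**Figure D4:**
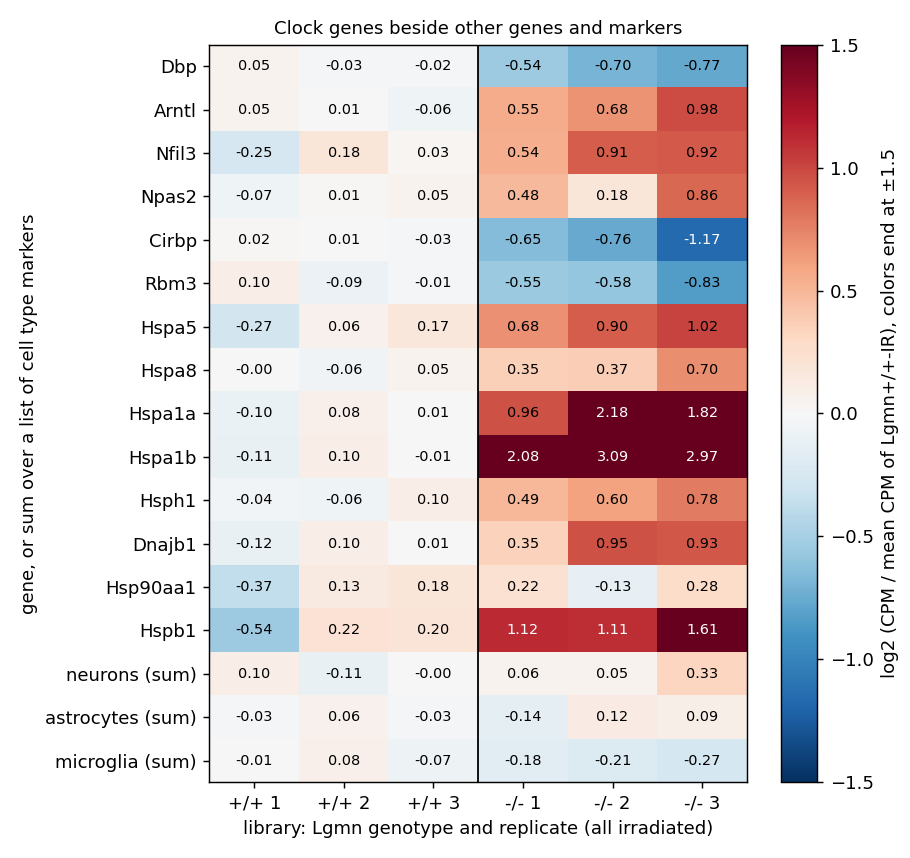
Log2 ratio of CPM to the mean of *Lgmn*+/+-IR in each library (columns, genotype and replicate) for 4 clock genes, the temperature response and heat shock genes, and summed markers of 3 cell types (rows), with the value in each cell and colors ending at ±1.5. *Dbp*, *Cirbp* and *Rbm3* are below 0 and *Arntl*, *Nfil3* and *Hspa1b* above 0 in all 3 knockout libraries.

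Cell type markers also differed in part. The oligodendrocyte markers *Mog* and *Mag*, genes of myelin glycoproteins, had 67.8 to 85.3 and 132 to 158 CPM in wild type and 36.8 to 47.6 and 101.3 to 107.9 CPM in the knockout. Both were lower past the test (log2 fold changes -0.91 and -0.53, adjusted p = 0.0171 and 0.0364), which held in 9 and 6 of 16 alternative settings. The sum of 6 neuronal markers was 6277 to 7266 and 6995 to 8480 CPM, with 0 of 6 past the test in edgeR, 0 at an unadjusted p under 0.05 and 0 past it in any alternative setting. The sum of 5 microglial markers was 114 to 127 and 99.7 to 106 CPM, without overlap, while the log2 fold changes of its genes ran from -0.60 to 0.46. Of these 5 genes, 0 passed the test in edgeR. Only 1, *Csf1r*, had an unadjusted p under 0.05, and it passed the test in 1 alternative setting. The sum of 5 astrocyte markers was 2746 to 2930 and 2557 to 3050 CPM, with 1 of 5, *Aqp4*, higher past the test (7 of 16 alternative settings). *Aqp4*, *Gfap* and *Gja1* had every knockout library above every wild-type library (12.4% of all genes tested). Their log2 fold changes were 0.55, 0.33 and 0.74, with unadjusted p under 0.05 (9.26% of all genes were higher at that level). *Slc1a2* and *Aldh1l1*, the rest of the list, overlapped between genotypes, with log2 fold changes of -0.06 and 0.04. Lists for oligodendrocyte precursors, endothelium, choroid plexus, striatum, thalamus and the suprachiasmatic nucleus with hypothalamus had 0 genes past the test in edgeR, and 3 of their genes, *Slco1a4*, *Lef1* and *Vip*, had an unadjusted p under 0.05, against 18.6% of all genes tested. Single marker genes were named after their values were seen. The part of the oligodendrocyte, astrocyte and microglial marker differences in those of the clock genes was not tested.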

How the data were processed

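Bulk RNA sequencing covered 6 cortical libraries, 3 per genotype, grouped by their titles. Per the labels, the authors filtered reads with Trimmomatic 0.36 and used GRCm38; the methods name HISAT2 and StringTie. The deposited raw counts per gene are not normalized, the FPKM deposited by the authors are scaled for length and library size, and the read counter and strand setting are not given in the sources used here. Of 51826 gene IDs, 51633 were found in GENCODE M21. The labels give no batch. The summed oligodendrocyte list is not reported here.

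The test between genotypes used edgeR 4.0.16 under R 4.3.3 (TMM, filterByExpr, quasi-likelihood F-test, genotype as the only term, Benjamini-Hochberg adjustment over 18345 genes). SE and 95% intervals follow from the F statistic. Pairs of libraries from 1 genotype had a chi-square, averaged over genes, of 28.7 to 102 and were taken as separate samples. On simulated counts for this comparison (18345 genes, 200 changed) the test recovered 54% of 2-fold and 94% of 4-fold changes, and 5.73% of its calls were unchanged genes. Alternatives used DESeq2 1.42.0, limma 3.58.1 on voom weights or log2(FPKM + 1, 0.1 or 0.01) at a mean FPKM of at least 0.1, other normalizations and filters, a replicate block and single omissions. The clock genes and lists were chosen with earlier results of these data known. Named genes were *Lgmn*, the 10 clock genes, 11 fixed pathway genes, pathway genes past the test, the 2 most abundant genes of each side list and genes ordered by correlation with *Dbp* (log2(CPM + 0.5), mean CPM of at least 5). Of the genes overlapping a clock gene, *Sphk2*, *Thra*, *Camta1* and *Gm43909* were also named, and those overlapping *Tef*, *Ciart* and *Arntl* were not. Other genes, and *Gm43909*, were named after their values were seen.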

Additional observations from a re-analysis of the deposited data

How the results depend on the processing

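In 16 alternative settings *Dbp* stayed lower (log2 fold change -0.73 to -0.62) and *Arntl* higher (0.62 to 0.84). The cause of a lost call was not tested, except that each omission leaves fewer samples. Clock genes called higher in the knockout numbered 1, and 2 with DESeq2, 0 without a filter on low counts, 0 with limma on log2(FPKM + 0.01) and 0 to 1 over single omissions. Those called lower numbered 1, and 2 with DESeq2, 2 with limma on log2(FPKM + 1) without a filter, 0 with limma on log2(FPKM + 0.01) and 0 to 1 over single omissions. The pathway list had 1 gene called higher, 0 with upper-quartile normalization, limma-voom, no filter and all 4 FPKM settings, and 0 over all single omissions, and 0 called lower, with 0 to 1 over single omissions. Over all genes 303 were higher and 308 lower, with DESeq2 746 and 677, with limma on log2(FPKM + 0.01) 180 higher, without a filter 192 lower, and over single omissions 120 to 249 higher and 103 to 251 lower.

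Same-numbered libraries did not deviate together (correlation of deviations -0.30, -0.05 and -0.05), so the number was not taken as a pairing. With the replicate number as a block, 81 genes were higher and 69 lower, 0 clock genes passed in either direction, and 0 of the pathway list were higher (*Dbp* adjusted p = 0.0627, *Arntl* adjusted p = 0.125, edgeR's quasi-likelihood test); the log2 fold change of *Per3* was -0.0036 with the block.

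Signs turned only for genes near 0. *Per3* (0.02) became -0.0031 with upper-quartile normalization, -0.00049 with limma-voom, -0.013, -0.020 and -0.021 with limma on log2(FPKM + 1, 0.1 and 0.01), -0.013 without the FPKM filter, and -0.13 to 0.24 over single omissions. *Per1* and *Nr1d1* (both -0.04) ranged from -0.13 to 0.032 and from -0.17 to 0.055 over single omissions. Of 160 gene results, 130 kept their side and sign, 12 lost a call, 3 gained one and 15 changed sign. The *Ciart* value (-0.74) was -0.25 without wild-type replicate 1 and -0.45 without knockout replicate 2. With at least 317 counts per gene and library, the precision is set by 3 samples per genotype rather than by depth.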

Other observations

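The order of all genes by their likeness to *Dbp* was looked at as a description, using Pearson's r of log2 CPM over the 6 libraries for the 11805 genes with a mean of at least 5 CPM. As the 6 libraries form 2 genotypes, genes that separate the genotypes most evenly lead this order, and it says nothing of shared control. The 5 highest were *1700019D03Rik* (r = 0.997), *Cmss1* (0.996), *Psmf1* (0.995), *Sprtn* (0.994) and *Uvssa* (0.992), and the 5 lowest were *Gm14150*, *Ppp2cb*, *Myh7*, *Rbpj* and *Tnc* (-0.998 to -0.995). Among the clock genes, *Arntl* had r = -0.97 and was 75th from the lowest end, *Per2* had r = -0.95 (221st), and *Nfil3* had r = -0.97 (96th). From the highest end, *Usp2* had r = 0.95 (154th), *Bhlhe41* 0.85 (704th), *Nr1d2* 0.79 (1013th), *Tef* 0.73 (1435th) and *Ciart* 0.59 (2255th). *Per1*, *Nr1d1* and *Per3* had r of 0.01, 0.10 and 0.16, and these 3 clock genes also had nearly equal means in the genotypes.

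*Cipc*, which encodes a CLOCK-interacting repressor, had 100.5, 91.2 and 110.3 CPM in *Lgmn*+/+-IR and 36.1, 91.9 and 30.1 CPM in *Lgmn*-/--IR. Knockout replicate 2 lay in the wild-type range and the other 2 far below it (log2 fold change -0.93, SE 0.40, edgeR quasi-likelihood adjusted p = 0.271). Without that replicate the adjusted p was 0.00502 and the log2 fold change -1.60. This was the only 1 of 16 alternative settings in which *Cipc* passed. Over single omissions its adjusted p was as high as 0.523. *Noct*, a rhythmic gene also called nocturnin, had 17.3, 49.4 and 14.8 CPM in wild type and 69.1, 17.9 and 79.3 CPM in the knockout. Wild-type replicate 2 and knockout replicate 2 each lay apart from the other libraries of their genotype. Both genes were named after their values were seen.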
